A study of Mus musculus with 6 samples.

Results

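The 325 regions described here are the wild-type H3K27ac peaks on chromosomes 1 to 19 that spanned 10 kb or more from start to end. They were 325 of 29276 wild-type peaks, or 1.13% of the 28644 on these chromosomes. They were chosen by measured wild-type width alone, so their wild-type width, and the tags that go with it, are a description and not a finding. H3K27ac, the acetylation of lysine 27 on histone H3, was mapped by ChIP-seq in RAW264.7, a transformed mouse line with macrophage-like properties. The genotypes of this line were wild type (titled naive), a Bmal1 knockout (Bmal1KO) and an Mfp2 knockout (Mfp2KO), all grown in DMEM with serum and with no stimulus named in the labels. For every genotype there was 1 library from the H3K27ac antibody and 1 from unprecipitated chromatin, the input. No replicate spread exists and no difference between genotypes was tested. Whether each knockout line grew from 1 clone is not stated in the labels.

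H3K27ac is laid down by the acetyltransferases p300 and CBP at active promoters and enhancers. At most sites it forms a short island. Long unbroken stretches form where many enhancers stand close together or where acetylation runs through the start of a strongly transcribed gene, and in macrophages such stretches are known from genes that define the cell type and from highly expressed genes. BMAL1 is the DNA-binding partner of CLOCK in the circadian oscillator. MFP2, the product of Hsd17b4, carries out hydration and dehydrogenation steps of peroxisomal β-oxidation. Positions are in build mm39. No gene is named for a domain and no sequence is printed, because the gene and promoter tables used here are in another build. Macrophage markers and the markers of other cell types were not looked up for the same reason.

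The wild-type domains covered 4.61 Mb, which was 7.20% of the wild-type called length on these chromosomes, and held 6.64% of the tags in those peaks. Their width ran from 10.0 kb through a median of 12.45 kb to 44.5 kb. There were 88 of at least 15 kb, 35 of at least 20 kb and 6 of at least 30 kb. Tag counts are the authors' normalised values, in tags per 10 M tags of a library. A domain held 164.9 tags at the lowest, 639.5 at the median and 2585 at the highest. Per length, the domains were no denser than shorter broad peaks: the median was 47.1 tags per kb, against 47.6 in the 1801 wild-type peaks of 5 to 10 kb. Enrichment over input, as the authors give it, ran from 5.22-fold through 11.1-fold to 32.1-fold.

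All autosomes carried such domains. Chromosome 19 had 17 among 978 peaks, or 1.74% (95% exact binomial interval 1.02 to 2.77), and chromosome 18 had 5 among 827, or 0.605% (0.197 to 1.41), with intervals that overlapped. None of the 601 wild-type peaks on the X chromosome, which the choice left out, was this long. Many lay alone: neighbouring domains of a chromosome were a median of 2.94 Mb apart. In 35 of 306 neighbouring pairs the gap was under 50 kb, and the closest pair was separated by 520 bp, so these members share a locus and are not independent. The width limit fell within a continuous range. Just inside it were domains of 10007, 10012 and 10018 bp, on chromosomes 3, 14 and 4, and just outside it peaks of 9984, 9982 and 9975 bp, on chromosomes 11, 16 and 14. Their wild-type tags were 336.9, 426.1 and 524 inside the limit and 396.7, 313.4 and 439.8 outside it.

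For each domain, the knockout peaks overlapping it by at least 1 bp were counted, their length inside it was summed, and their tags were taken in proportion to the length inside. Sequence with no knockout peak contributes no tags, although it can hold acetylation too weak to be called. A tag ratio below is therefore a ratio of called tags. It lies at or below the ratio of all tags where the knockout peaks end inside the domain. Where a peak runs past the domain, the division by length can err either way. The authors' tag minimum for a 500 bp window was 9 in Bmal1KO and 10 in the other lists. On the common scale this came to 14.4 tags per kb in Bmal1KO and 12.7 in both others, so the Bmal1KO library, with 12.53 M tags against 15.8 M in each of the others, needed a higher level to be called.

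In Bmal1KO, most wild-type domains were held by several shorter peaks as the authors called them, though not once pieces up to 2500 bp apart were joined (28.0%). Of the 325 domains, 264 contained 2 or more Bmal1KO peaks, or 81.2% (76.6 to 85.3), while over all wild-type peaks on chromosomes 1 to 19 this was 5.24%. Wide peaks have more room for several pieces, and among the 5 to 10 kb peaks the share was 37.5%. Exactly 2 pieces were found in 109 domains, 3 in 86, 4 in 43, and 5 or more in 26. A single Bmal1KO peak held 61 domains. In 15 of these it covered 90% or more of the domain, and in the other 46 it was shorter. No domain lacked a Bmal1KO peak altogether, against 38.9% of all wild-type peaks and 1.89% of those of 5 to 10 kb.

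Mfp2KO gave a similar breakdown, with 31.1% in several pieces after the same joining. In 254 domains there were 2 or more Mfp2KO peaks, or 78.2% (73.3 to 82.5), against 4.48% of all wild-type peaks and 34.2% of those of 5 to 10 kb. There were 133 domains with 2 pieces, 72 with 3, 30 with 4, and 19 with 5 or more. One Mfp2KO peak held 67 domains, of which 17 were covered to 90% or more and 50 to less. In 4 domains no Mfp2KO peak was called, or 1.23% (0.336 to 3.12). None was called in 41.5% of all wild-type peaks and in 3.50% of those of 5 to 10 kb. The comparisons of Bmal1KO and of Mfp2KO with wild type share the wild-type library, so their resemblance is not independent evidence.

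**Figure D1:**
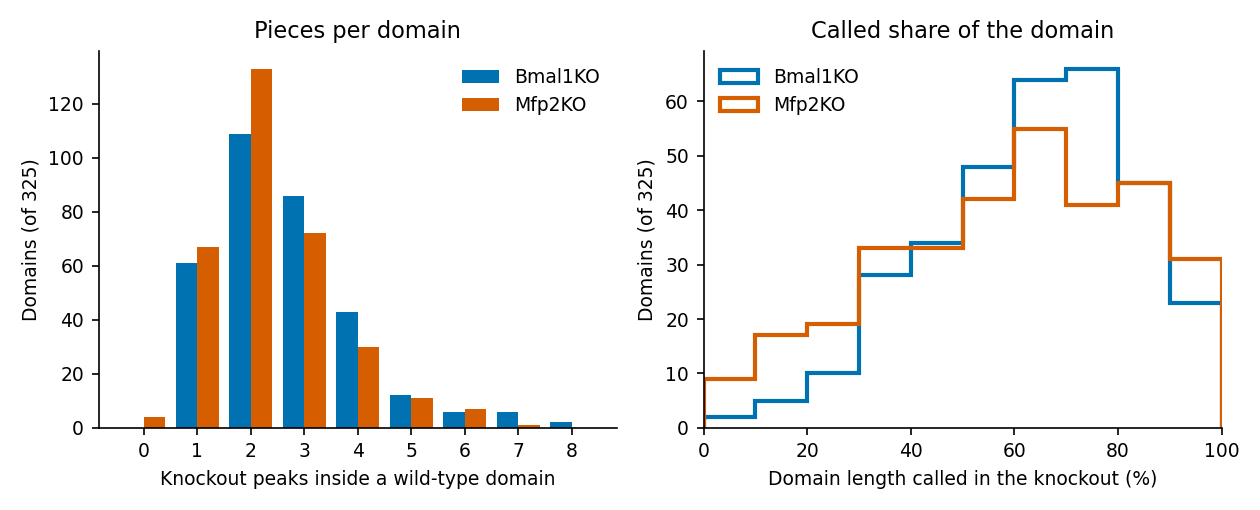
Left, number of knockout peaks inside each of the 325 wild-type domains (bars, count of domains); right, distribution of the share of the domain length called in the knockout (% in steps of 10, count of domains). In both knockouts 2 pieces are the most frequent outcome, with 109 domains in Bmal1KO and 133 in Mfp2KO, and the called share spreads from under 10% to over 90%.

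A large part of the length was not called in the knockouts. Bmal1KO peaks covered 2.91 Mb of the domains, or 63.0% of their summed length. Per domain the covered share ran from 4.90% through a lower quartile of 50.2%, a median of 65.6% and an upper quartile of 78.6% to 99.7%. Mfp2KO peaks covered 2.69 Mb, or 58.2%, with quartiles of 40.9%, 61.1% and 78.9%. These pooled shares were below those of wild-type peaks of 2 to 10 kb and above those of the whole list. The 5 to 10 kb peaks were covered to 63.8% in Bmal1KO and 60.2% in Mfp2KO, peaks of 2 to 5 kb to 69.1% and 63.8%, and all wild-type peaks to 58.9% and 54.97%. Under 50% of the length was called at 79 domains in Bmal1KO, or 24.3%, and at 111 in Mfp2KO, or 34.2%. Over all wild-type peaks these shares were 51.7% and 53.5%, which include the short peaks with no knockout peak at all. In the 5 to 10 kb peaks they were 25.4% and 31.3%. The median over all wild-type peaks was 46.4% of the length in Bmal1KO and 41.0% in Mfp2KO.

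The longest called piece was usually far shorter than the domain. Its median length was 5.28 kb in Bmal1KO, or 39.0% of the domain, and 4.99 kb in Mfp2KO, or 37.1%. In the 5 to 10 kb peaks the longest piece made up 56.5% and 52.9%. A piece of 10 kb or more inside the domain was found at 42 domains in Bmal1KO, or 12.9% (9.47 to 17.1), and at 38 in Mfp2KO, or 11.7% (8.41 to 15.7).

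Inner gaps and shortened ends contributed in similar amounts. In Bmal1KO, 1.70 Mb of domain sequence was not called, of which 53.5% lay in gaps between pieces and 46.5% beyond the outermost pieces. In Mfp2KO, of 1.93 Mb not called, 48.4% lay in gaps, 49.3% at the ends, and 0.0441 Mb in the domains without a peak. The 5 to 10 kb peaks differed in this respect, with 71.3% and 71.9% of their uncalled sequence at the ends. Divided into 10 equal bins, the domains were called at 41.8% of the first bin and 37.7% of the last in Bmal1KO, and at between 67.0% and 72.4% of the 8 inner bins. In Mfp2KO the outer bins were at 38.3% and 38.2% and the inner ones between 60.9% and 67.8%. The profile was flat across the inside of the domain rather than highest at its centre. In the 5 to 10 kb peaks it rose inwards to 77.5% in Bmal1KO and 73.9% in Mfp2KO. A bin scales with peak width, so bins were longer in the domains (median width 12.45 kb) than in these peaks (6.20 kb). The median length not called at an end was 0.79 kb in Bmal1KO and 0.88 kb in Mfp2KO for the domains. For the 5 to 10 kb peaks it was 0.60 and 0.64 kb, so the 2 profiles are not on 1 scale of length. The wild-type call sets where a domain ends, and its part in the lower values at both ends was not tested.

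**Figure D2:**
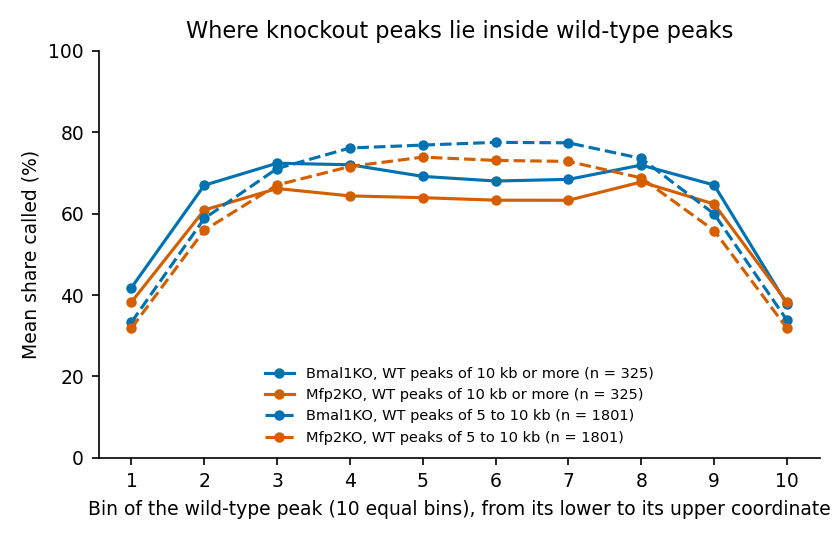
Mean share of sequence called in each knockout (%, y axis) in each of 10 equal bins of the wild-type peak, from its lower to its upper coordinate (x axis), for the 325 domains of 10 kb or more (solid) and the 1801 peaks of 5 to 10 kb (dashed). The long domains show a flat inside between 60.9% and 72.4% and outer bins between 37.7% and 41.8%, whereas the shorter peaks rise towards their middle.

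The gaps were mostly narrow. Bmal1KO had 538 gaps between pieces, with a median of 1338 bp, an upper quartile of 2147 bp and a maximum of 8841 bp, and 104 of them, or 19.3%, exceeded 2500 bp. Mfp2KO had 452 gaps, with a median of 1500 bp, an upper quartile of 2610 bp and a maximum of 14261 bp, and 121, or 26.8%, exceeded 2500 bp. When knockout peaks up to 2500 bp apart were counted as 1 piece, the share of domains in 2 or more pieces was 28.0% in Bmal1KO in place of 81.2%, and 31.1% in Mfp2KO in place of 78.2%. The breaks that separated most domains were thus of the size of a few windows of the peak caller, which joined windows within 1000 bp.

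Every domain of 20 kb or more was held by at least 2 pieces in both knockouts, 35 of 35. Their median number of pieces was 5 in Bmal1KO and 4 in Mfp2KO. The longest domain, chr10:120447077-120491571, held 2580 tags over 44.5 kb in wild type. Bmal1KO had 6 peaks there, covering 30.1 kb with 1088 tags, and Mfp2KO had 5, covering 23.5 kb with 859.9 tags. The tag ratios were 0.422 (95% counting interval 0.396 to 0.448) and 0.333 (0.313 to 0.355), where the interval covers tag counting only. Its largest inner gaps were 4.58 kb in Bmal1KO and 5.16 kb in Mfp2KO.

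The next longest domain, chr4:122759056-122798194, spanned 39.1 kb with 1843 tags. It was held by 8 Bmal1KO pieces over 22.1 kb with 935.2 tags and by 6 Mfp2KO pieces over 13.2 kb with 1079 tags. Mfp2KO thus had more tags on less sequence, 81.5 tags per kb of called length against 42.3 in Bmal1KO and 47.1 in wild type. The most pieces over both knockouts were found at chr19:9025572-9061347, where a 35.8 kb peak of 2035 tags was met by 8 Bmal1KO pieces with 634.4 tags and 7 Mfp2KO pieces with 725.6 tags. Directly beside it lay chr19:8998532-9024948, with 1216 tags over 26.4 kb. There Bmal1KO covered 37.3% with 272.0 tags and Mfp2KO 42.4% with 373.2 tags, ratios of 0.224 (0.199 to 0.251) and 0.307 (0.279 to 0.337). This pair had the lowest tag ratios among the 10 longest domains in Bmal1KO.

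Other long domains kept more. At chr9:65429532-65462178, 32.6 kb long with 2102 tags, Bmal1KO had 6 pieces over 71.4% of the length with 1062 tags, and Mfp2KO 2 pieces over 78.9% with 1569 tags. A 29.1 kb domain, chr2:180075147-180104244, had 1537 tags in wild type, 705.3 in 4 Bmal1KO pieces and 1694 in 3 Mfp2KO pieces. On the 10 M scale the knockouts thus lay on opposite sides of wild type, with ratios of 0.459 and 1.10. Both ratios were below the medians of 0.749 and 1.16 over wild-type peaks with a peak in that knockout. Most was kept at chr19:5846087-5872879, a 26.8 kb domain with 1959 tags: Bmal1KO called 84.3% of it with 1656 tags, and Mfp2KO 88.0% with 3166 tags. The longest single pieces of these lists inside any domain, 19.5 kb and 21.7 kb, were both there.

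Pairs of long domains on chromosomes 2 and 16 behaved unevenly. At chr2:116801896-116832522, 30.6 kb with 1793 tags, Bmal1KO had 1213 tags in 4 pieces and Mfp2KO 1244 in 5. About 0.1 Mb further on, chr2:116934130-116961062 held 1773 tags over 26.9 kb in wild type. Bmal1KO had 7 pieces there over 15.2 kb with 852.2 tags, while Mfp2KO had 2 over 5.55 kb with 913.8 tags. The Mfp2KO density was 165 tags per kb, against 55.9 in Bmal1KO and 65.8 in wild type, and a gap of 14.3 kb, the widest in any domain, separated the Mfp2KO pieces. Input per kb in those Mfp2KO pieces was 2.82 times the wild-type input per kb of the whole domain; its part in the result was not tested. On chromosome 16, chr16:24855980-24886204 held 1763 tags over 30.2 kb, with 1014 tags in Bmal1KO and 1082 in Mfp2KO. Its neighbour chr16:24826038-24849281 held 1075 tags, with 442.4 in 4 Bmal1KO pieces and 262.0 in 6 Mfp2KO pieces.

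**Figure D3:**
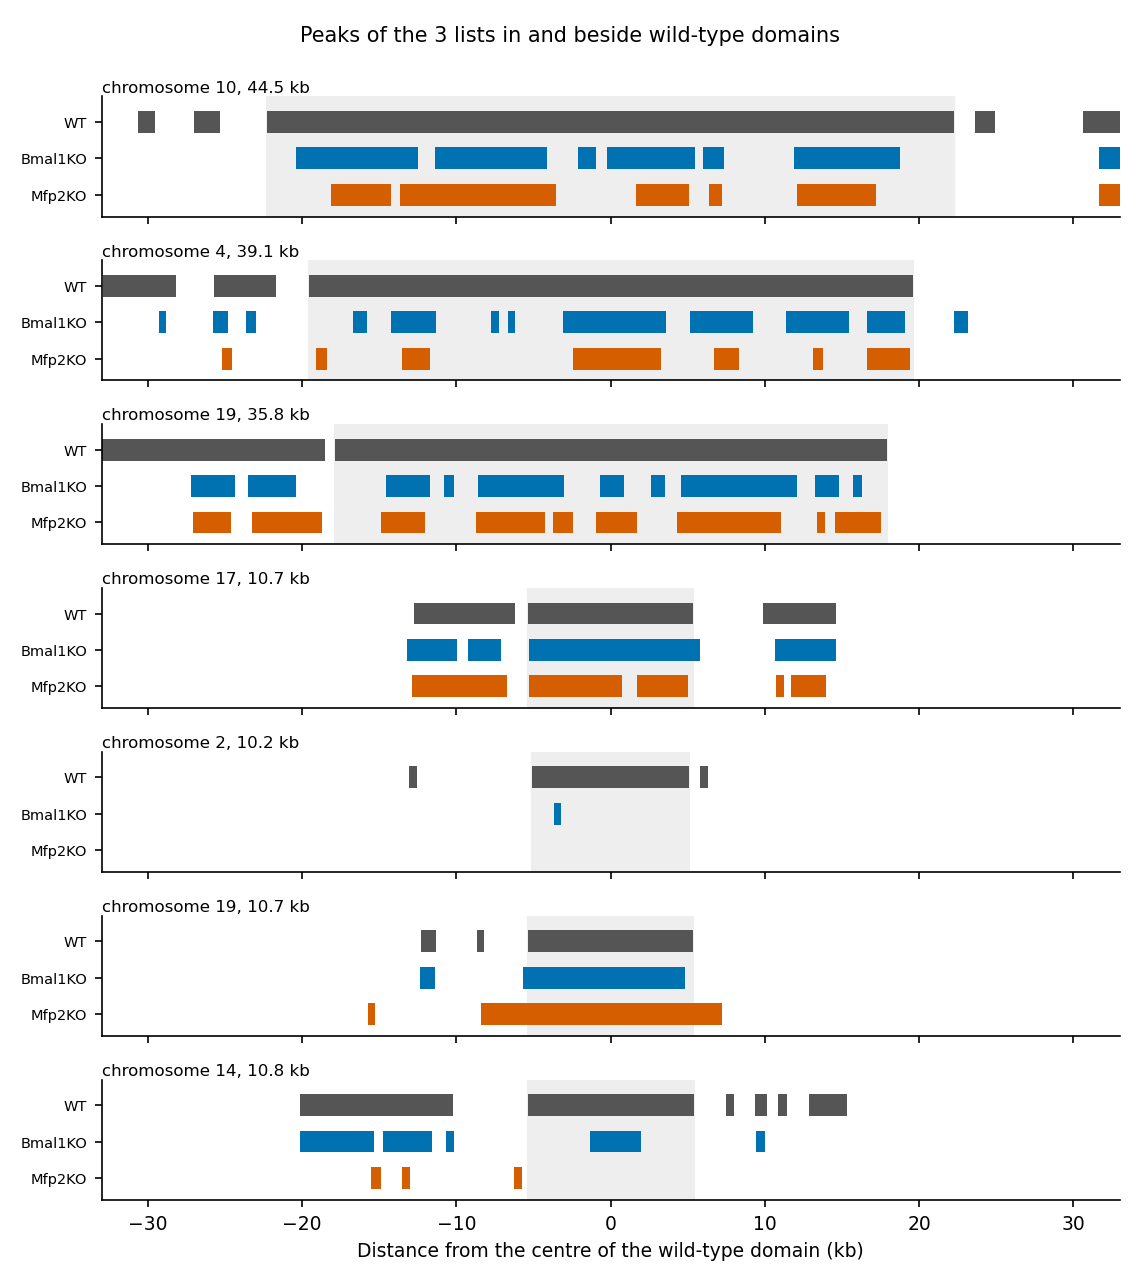
Peaks of the 3 lists (bars) in 7 wild-type domains (grey shading) and within 10 kb on either side, by distance from the centre of the domain in kb. From the top, the 3 longest domains; the domain with the highest called share in Bmal1KO; the one with the lowest called share in Bmal1KO; the one with the highest and, last, one of the 4 with no called sequence in Mfp2KO. The long domains are cut into 5 to 8 pieces, whereas 1 peak holds most of the short domain on chromosome 19 in both knockouts and of the domain on chromosome 17 in Bmal1KO, with 2 Mfp2KO pieces there.

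Domains cut into many pieces were also found below 30 kb. At chr10:70201934-70225674, 23.7 kb with 894.4 tags, 7 Bmal1KO pieces covered 52.7% with 325.4 tags, and 2 Mfp2KO pieces covered 38.9% with 394.1 tags. Mfp2KO called nothing in the last 12.7 kb of that domain. At chr5:3539008-3563253, 24.2 kb with 795.6 tags, 7 Bmal1KO pieces held 320.3 tags and 6 Mfp2KO pieces 467.3 tags. At chr9:55996804-56020702 both knockouts had 6 pieces, with 592.1 tags in Bmal1KO and 858.3 in Mfp2KO against 1029 in wild type. The outer pieces there reached both ends of the domain in Mfp2KO, so only inner gaps were missing.

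Tags in the domains were lower than in wild type at the median, with a wider spread in Mfp2KO. The ratio of called tags to wild type had quartiles of 0.385, 0.524 and 0.752 in Bmal1KO and of 0.341, 0.682 and 1.21 in Mfp2KO. Over the 17489 wild-type peaks with a Bmal1KO peak the median ratio was 0.749, or -0.42 on the log2 scale, and over the 16761 with an Mfp2KO peak it was 1.16, or 0.22. Over all wild-type peaks, those without a knockout peak included, the medians were 0.402 and 0.357. Relative to the shift of peaks with a knockout peak, the median domain stood at 0.70 in Bmal1KO and 0.585 in Mfp2KO. In the 5 to 10 kb peaks the medians were 0.617 and 0.888. Called tags were under 0.5 times wild type at 146 domains in Bmal1KO, or 44.9%, and at 120 in Mfp2KO, or 36.9%. Over all wild-type peaks these shares were 55% and 54.4%, which include the peaks with no knockout peak. In the 5 to 10 kb peaks they were 34.6% and 32.3%, below those of the domains. More than 2 times the wild-type tags were found at 0 domains in Bmal1KO, against 1.23% of all peaks, and at 22 in Mfp2KO, or 6.77%, against 14%. Among the 5 to 10 kb peaks these shares were 0% in Bmal1KO and 10.3% in Mfp2KO. The Mfp2KO library had 57.2% of its tags in peaks and wild type 38.7%, and whether this share moves the tag ratios by more than a common factor was not tested.

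Summed over the domains the picture differed from the median. Bmal1KO held 0.656 times the wild-type tags and Mfp2KO 1.01 times. The same sums were 0.805 and 1.21 times in the 5 to 10 kb peaks, and 0.887 and 1.33 times over all wild-type peaks. The quartile of domains with most wild-type tags per kb held 39.9% of wild-type domain tags, 52.7% of those of Bmal1KO and 57.7% of those of Mfp2KO. The sparsest quartile held 13.5%, 7.23% and 4.97%. Mfp2KO exceeded wild type at 110 domains, or 33.8%, and Bmal1KO at 26, or 8%. Among the 5 to 10 kb peaks these shares were higher, at 43.9% and 18.3%. Filling all uncalled sequence at the tag minimum of the knockout list was an alternative added once the values were known. It is not a ceiling, because a called region also needed 4-fold enrichment over input. The median ratio was then 0.653 in Bmal1KO and 0.779 in Mfp2KO, and the sums were 0.753 and 1.10 times wild type. The number of domains under 0.5 times wild type was then 28 in Bmal1KO and 59 in Mfp2KO. Most of the 146 Bmal1KO domains under this limit were thus not under it when uncalled sequence was filled at this level.

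Dense domains stayed whole more often than sparse ones. In the quartile with fewest wild-type tags per kb (16.2 to 36.4), Bmal1KO peaks covered 43.3% of the length and Mfp2KO peaks 32.8%. From there the covered share was 60.6% and 56.1% in the second quartile, 70.5% and 69.5% in the third, and 78.4% and 75% in the densest. The median tag ratio went from 0.348 to 0.829 in Bmal1KO and from 0.251 to 1.28 in Mfp2KO. Domains in 2 or more Bmal1KO pieces made up 93.9% of the sparsest quartile and 63.0% of the densest. For Mfp2KO pieces the shares were 81.7%, 88.9%, 75.3% and 66.7% from the sparsest to the densest quartile, thus highest in the second. The 4 domains without an Mfp2KO peak were in the sparsest. Mfp2KO exceeded the wild-type tags at 5 of 82 domains in the sparsest quartile and at 56 of 81 in the densest. Spearman's rho between wild-type tags per kb and the covered share was 0.65 in Bmal1KO and 0.66 in Mfp2KO over the 325 domains. The wild-type tags enter both the ranking and the ratio, and a sparse domain lies closer to the calling threshold. Width itself had little relation to the covered share, with rho of -0.07 in Bmal1KO and -0.08 in Mfp2KO.

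Wild-type input, which enters the choice through the authors' fold and p-value limits over input, also went with what was called in the knockouts. Ranked by input tags per kb, the lowest quartile was covered to 50.8% in Bmal1KO and 34.8% in Mfp2KO, and the highest to 79.0% and 81.0%. Median tag ratios went from 0.380 to 0.789 in Bmal1KO and from 0.250 to 1.38 in Mfp2KO. In Mfp2KO, 61 of 81 domains of the highest input quartile exceeded the wild-type tags and 5 of 82 of the lowest. Spearman's rho between input per kb and the tag ratio was 0.59 in Bmal1KO and 0.73 in Mfp2KO over the 325 domains. The corresponding rho with the authors' enrichment over input was 0.16 and -0.02. The order was also present in the 1801 peaks of 5 to 10 kb, with rho of 0.62 in Bmal1KO and 0.69 in Mfp2KO.

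Input and ChIP density went together in wild type, with rho of 0.71 over the domains. Both were therefore divided at their medians. Among the domains in the lower part by ChIP density, Mfp2KO had a median ratio of 0.284 in the 118 with lower input and 0.798 in the 44 with higher input. Among those in the upper part, it had 0.667 in the 44 with lower input and 1.20 in the 119 with higher input. In Bmal1KO these 4 values were 0.383, 0.506, 0.569 and 0.724. ChIP density still differed somewhat within each part, with medians of 33.6 and 42.6 tags per kb in the lower part and 56.5 and 71.7 in the upper. A domain had between 20.5 and 351.5 input tags as counted, with a median of 92, so single domains are ranked with counting error. Base composition, chromatin accessibility and copy number, were not measured here, and their part in these values was not tested.

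**Figure D4:**
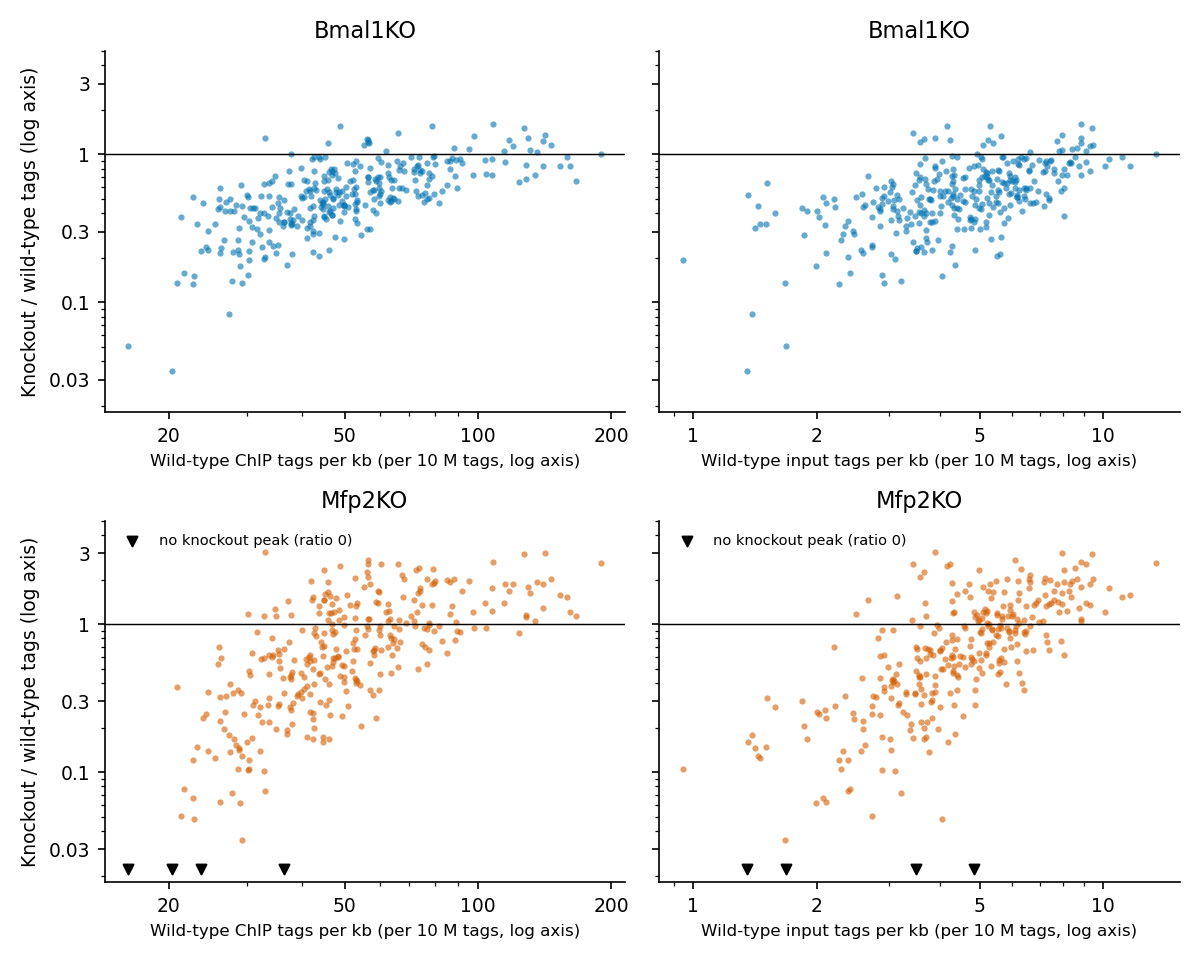
Called knockout tags over wild-type tags (y axis, log scale) for each of the 325 domains against wild-type ChIP tags per kb (left, log scale) and wild-type input tags per kb (right, log scale), in Bmal1KO (top) and Mfp2KO (bottom). Points are domains, the line marks equal tags, and triangles mark the 4 domains without an Mfp2KO peak. Ratios are higher where wild-type ChIP or input is high, and in Mfp2KO 110 domains lie above the line.

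The domains that kept least were sparse in wild type. Lowest in Bmal1KO was chr2:46128371-46138579, with 207.7 tags over 10.2 kb in wild type, or 20.3 per kb. A single Bmal1KO peak of 0.5 kb with 7.18 tags was left there, and no Mfp2KO peak was called. At chr1:144086078-144096246, 164.9 tags over 10.2 kb in wild type were met by 1 Bmal1KO peak of 0.5 kb with 8.38 tags and again by no Mfp2KO peak. Its density of 16.2 tags per kb was the lowest of all domains and not far above the tag minimum of 12.7 per kb. Wild-type input was also low, at 1.35 and 1.69 tags per kb in these 2 domains, against a median of 4.48.

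The other 2 domains without an Mfp2KO peak were kept in part by Bmal1KO. At chr14:64378047-64388799 wild type had 391.3 tags, and 1 Bmal1KO peak of 3.29 kb held 136.8 tags, a ratio of 0.350 (0.293 to 0.414). At chr9:59961090-59974073 wild type had 308.1 tags, and 2 Bmal1KO peaks held 68.6 tags. The domain on chromosome 14 was denser than the others, with 36.4 tags per kb, though still in the sparsest quartile and below the median of 47.1. Its input of 4.85 per kb was near the median of 4.48.

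Other sparse domains were longer or held more wild-type tags. The 26.4 kb domain chr8:38345313-38371664 had 720.3 tags with 19.6-fold enrichment over input in wild type. Bmal1KO had 5 pieces over 14.1% of its length with 60.2 tags, and Mfp2KO 4 pieces over 22.8% with 129.3 tags, ratios of 0.0836 (0.0658 to 0.106) and 0.179 (0.154 to 0.208). Its wild-type density was 27.3 tags per kb. At chr1:65804909-65819141, 14.2 kb with 417.3 tags and 17.5-fold enrichment, Bmal1KO had 56.3 tags in 3 pieces and Mfp2KO 14.5 tags in 2. At chr2:22688372-22707098, 424.6 tags over 18.7 kb in wild type compared with 56.7 in Bmal1KO and 50.9 in Mfp2KO. The domain chr1:177533555-177544861 had 236.5 wild-type tags, 31.9 Bmal1KO tags and 88.4 Mfp2KO tags. At chr2:135647244-135659387 wild type had 277.7 tags, Bmal1KO 41.5 and Mfp2KO 13.3.

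At the opposite end, the 5 domains with the highest called share in Bmal1KO all had more tags in Mfp2KO than in wild type. All 5 lay in the quartile densest in wild type, where Mfp2KO exceeded wild type at 56 of 81 domains. In Bmal1KO the highest share was at chr17:35411439-35422102, where 1 peak covered 99.7% of 10.7 kb. Wild type had 722.5 tags there, Bmal1KO 634.8, and Mfp2KO 1095 in 2 pieces. In the same order, the tags at chr11:96174207-96185670 were 1320, 1163 and 2447, at chr7:28070429-28086674 they were 1434, 1571 and 2887, and at chr3:95127945-95138952 they were 1543, 1293 and 1968. The densest of all domains was chr5:142798967-142810517, with 190 tags per kb in wild type. It was held by 1 peak in each knockout, with 2196 tags for wild type, 2192 for Bmal1KO and 5717 for Mfp2KO. The ratios were 0.998 (0.95 to 1.05) and 2.6 (2.50 to 2.71), and input per kb was also the highest of all domains, at 13.5.

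A single Mfp2KO peak covered 4 domains in full. One was chr19:5890552-5901265, with 935.9 wild-type tags, 879.9 Bmal1KO tags and 1242 Mfp2KO tags. Others were chr19:3953542-3965534, with 817.8, 631.1 and 1661 tags, and chr15:76080687-76092703, with 727.2, 639.5 and 1858 tags. The last, chr15:78479940-78490181, had 460.7 tags in wild type, 261.2 in 2 Bmal1KO pieces and 674.9 in Mfp2KO. The Mfp2KO peak there held 1608 tags and ran 14.2 kb past the domain, so the 674.9 tags were assigned by length. At chr19:5772400-5782616, where Mfp2KO covered 97.6%, the tags were 942.5, 826.1 and 1573. In these 5 domains Bmal1KO was below wild type and Mfp2KO above it, with tags divided by length where a peak ran past the domain. They were chosen by their called share in Mfp2KO. The medians over wild-type peaks with a peak in that knockout were themselves 0.749 in Bmal1KO and 1.16 in Mfp2KO. Of the Bmal1KO ratios only that of chr15:78479940-78490181, 0.567, was below this median, and all Mfp2KO ratios were above theirs.

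Domains held whole by 1 piece, covering 90% or more, had a median of 85.0 wild-type tags per kb in Bmal1KO (15 domains) and 76.9 in Mfp2KO (17 domains). Those in 2 or more pieces had 45.7 and 45.9. Median input per kb was 8.28 and 6.93 in the former and 4.32 and 4.33 in the latter. Of the 17 domains held whole in Mfp2KO, 15 had more tags than wild type, with a median ratio of 1.65, and of the 15 held whole in Bmal1KO, 2 did, with a median ratio of 0.881. These classes were set by the called length in the knockout itself. Over all domains 33.8% were above wild type in Mfp2KO and 8% in Bmal1KO. Among the 81 densest in wild type, 56 were above it in Mfp2KO and 16 in Bmal1KO.

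The called knockout pieces differed in density from the domain around them. Bmal1KO pieces had a median of 38.6 tags per kb against 47.1 over the wild-type domains, a median ratio of 0.827, and were denser than wild type at 88 of 325 domains. Mfp2KO pieces had 54.0 tags per kb, a median ratio of 1.13, and were denser at 183 of 321. Input per kb in the pieces, relative to wild-type input over the whole domain, had a median of 0.960 in Bmal1KO (5th to 95th percentile 0.641 to 1.39) and 1.13 in Mfp2KO (0.666 to 2.25). At the highest Bmal1KO ratio, chr9:123722046-123733148, wild type had 1200 tags, Bmal1KO 1934 and Mfp2KO 3174, a region chosen after its values were seen.

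Some knockout pieces reached beyond the domains. In Bmal1KO 79 domains, or 24.3%, had a piece that extended past an end, by 49.3 kb in all, and in Mfp2KO 94 did, or 28.9%, by 119 kb. Among the 5 to 10 kb peaks the shares were 27.8% and 31.5%.

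Choosing regions for their width in one list favours that list, so the search was also made from the other side. Of the 47 Bmal1KO peaks of 10 kb or more, 40 were held by a single wild-type peak and 7 by 2 or more, or 14.9% (6.20 to 28.3). Wild type covered 96.8% of their summed length. Of the 60 Mfp2KO peaks of this width, 41 overlapped a single wild-type peak and 19 overlapped 2 or more, or 31.7% (20.3 to 45.0), with 89.5% covered. For wild-type domains looked up in the knockouts, the shares in several pieces were 81.2% and 78.2%. With 1 library per genotype these differences were not tested, and the intervals treat regions as independent. The knockout lists were broken in each other more often, with 28 of 47 Bmal1KO peaks in 2 or more Mfp2KO pieces and 42 of 60 Mfp2KO peaks in 2 or more Bmal1KO pieces.

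With equal numbers of peaks the order was the same. The 325 longest Bmal1KO peaks, which went down to 6.09 kb, were covered to 96.1% by wild type, and 294 overlapped exactly 1 wild-type peak. The 325 longest Mfp2KO peaks, down to 6.50 kb, were covered to 89.3%, and 253 overlapped exactly 1. Wild type covered 90% or more of the length at 276 of these Bmal1KO peaks and 203 of these Mfp2KO peaks. These peaks are shorter than the wild-type domains, so the values are not matched in width. Long Mfp2KO peaks held fewer tags in wild type, with a median ratio of 0.591 for those of 10 kb or more, whereas long Bmal1KO peaks held 1.09 times their tags. Of the long knockout peaks, 43 of 47 in Bmal1KO and 43 of 60 in Mfp2KO overlapped one of the 325 domains, which left 17 long Mfp2KO peaks where wild type had no peak of this width.

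**Figure D5:**
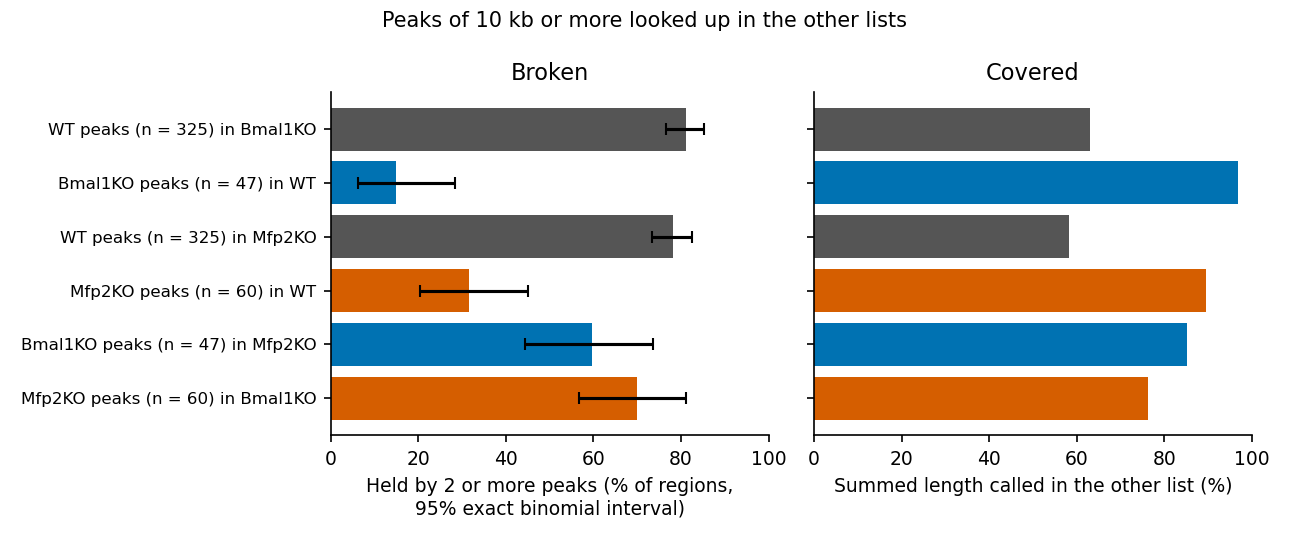
Peaks of 10 kb or more of each list looked up in the other lists: left, share held by 2 or more peaks (%, bars, with 95% exact binomial intervals over regions); right, share of the summed length called in the other list (%). Wild-type domains were in several pieces in 81.2% and 78.2% of cases, and long knockout peaks looked up in wild type in 14.9% and 31.7%.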

How the data were processed

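H3K27ac ChIP-seq was analysed from 3 peak lists, 1 per ChIP library, in mouse build mm39. Peak calling used HOMER findPeaks (histone style) with the matching input as control, per the file headers, joining 500 bp windows into regions that needed 4-fold enrichment and a p-value of 0.0001 over input. The submitters' processing notes name HOMER 5.1, MACS3 3.0.3, Picard 3.4.0, SAMtools 1.23, BWA 0.7.19-r1273 and fastp 1.0.1, with no role stated. The deposited tag count is a signal scaled to 10 M tags per library, and ChIP and input tags are deposited as signal at a shared depth. The authors' fold is the ratio of ChIP to input, and their score and p-value per peak were not used in any comparison.

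Wild-type peaks of 10 kb or more on chromosomes 1 to 19 were looked up in the knockout lists at an overlap of 1 bp, with tags in proportion to the length inside the domain. Input was rescaled to 10 M tags. Intervals on shares are exact binomial (Clopper-Pearson) over regions, and those on tag ratios of single domains are binomial over tags. Both cover counting only. Python 3.11.15, pandas 2.3.3, numpy 2.4.6 and scipy 1.17.1 were used, and the look-up was checked on simulated domains. Named regions are the 10 longest domains and, for each knockout, the 5 with the lowest and highest called share, most pieces and lowest tag ratio. The members and rules were chosen with earlier results of these data known.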

Additional observations from a re-analysis of the deposited data

How the results depend on the processing

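Of 46 alternative values of the 6 main results, 26 stayed within the interval of the main value and 20 did not. The share of domains in 2 or more pieces depended most on the settings. It was 74.1% in Bmal1KO and 68.6% in Mfp2KO with domains of 8 kb or more, 89.3% and 87.4% with a higher minimum width that left 159 domains, and 65.2% and 65.2% when every list was limited to peaks of 6-fold or more over input. It was 54.7% and 50.8% when all lists were joined over gaps of up to 2500 bp and the domains chosen again, and 28.0% and 31.1% when only knockout peaks were joined, so that a majority in several pieces became a minority. The median called share was 59.0% in Bmal1KO and 56.3% in Mfp2KO with 6-fold peaks and 59.5% and 56.1% with all lists joined. The median tag ratio in Bmal1KO was 0.498 with 6-fold peaks, 0.70 relative to the median of all wild-type peaks with a knockout peak, and 0.653 with uncalled sequence filled at the tag minimum, the last added after the data were seen. In Mfp2KO it was 0.835 with all lists joined, 0.462 relative to the tags in peaks and 0.585 relative to the median peak. Joined lists give other and more domains, 984 in all. The cause of the other changes was not tested. An equal number of strongest peaks per list, an overlap of 500 bp, whole tags of overlapping peaks and subtraction of input kept each value they were run on within its interval. No paired analysis was possible because each genotype had 1 ChIP library. Reads without molecular identifiers are not independent molecules. The Bmal1KO library had fewer tags and a higher tag minimum per kb, and the part of depth in what was called was not tested.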
